A study of Mus musculus with 23 samples.

Results

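The genes described here are 10 T cell genes: Cd3d, Cd3e, Cd3g and Cd247 of the T cell receptor complex, the coreceptor genes Cd4, Cd8a and Cd8b1, the kinase gene Lck, the cytokine receptor gene Il7r and the transcription factor gene Tcf7. They were chosen by name, and all 10 were found by identifier among the 37620 gene identifiers counted in each library. The study measured RNA in melanomas that ultraviolet light had induced in mice, as 23 libraries of bulk RNA in 4 groups. Lung metastases (2 libraries, numbers 3 and 4), lymph node metastases (7 libraries) and HPN primary melanomas (7 libraries, numbers 1 to 7) were taken from animals labelled Nme1+/- / Nme2+/-, which carry a mutant copy of each of 2 genes for nucleoside diphosphate kinases. HP primary melanomas (7 libraries, numbers 1, 3, 4, 5, 6, 7 and 9) were labelled Nme1wt / Nme2wt. Nodes 3, 4 and 8 were brachial, nodes 6 and 7a cervical and node 7b inguinal, and node 5 was labelled as lymph without a site. Nodes 7a and 7b share a number and were summed for every test, which left 6 node samples. The labels give no age, sex or strain, do not spell out HP or HPN, and do not say whether each primary came from its own animal, so the p-values speak only to the spread among these libraries, which may be technical.

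T cells recognise a peptide held by an MHC molecule through an antigen receptor that cannot signal by itself. The CD3 delta, epsilon and gamma chains and the zeta chain (Cd247) carry the signal into the cell, and the kinase Lck, brought close by the coreceptors CD4 or CD8, phosphorylates their tails. CD4 binds MHC class II and marks helper and regulatory T cells, while CD8, a pair of the Cd8a and Cd8b1 chains, binds MHC class I and marks cytotoxic T cells; some dendritic cells also make Cd8a, and in the mouse some dendritic cells make Cd4. Lymph nodes are dense with resting T cells, which depend on interleukin 7 through Il7r and express Tcf7, the factor known as TCF-1. Mouse epidermis is known to hold its own resident T cells with gamma-delta receptors, most of which lack CD4 and CD8.

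Cd3d (ENSMUSG00000032094, chr9:44981786-44987339, plus strand), Cd3e (ENSMUSG00000032093, chr9:44998740-45009627, minus strand) and Cd3g (ENSMUSG00000002033, chr9:44969572-44980431, minus strand) lie side by side in GRCm38. Cd3d and Cd3g point away from each other. Their promoters are shown because these 3 genes moved together in the results that follow, and those of Lck because it followed them most closely; the gene is on chr4:129548344-129573641 of the minus strand (ENSMUSG00000000409). The sequences are from RefSeq for GRCm38.p6 and run 5′ to 3′ from 250 bases before to 50 bases after an annotated start. Capitals mark AGGAAG or its reverse complement CTTCCT, a core of the kind that ETS factors bind, chosen after the sequences were seen.
Cd3d, chr9:44981536-44981835, plus strand: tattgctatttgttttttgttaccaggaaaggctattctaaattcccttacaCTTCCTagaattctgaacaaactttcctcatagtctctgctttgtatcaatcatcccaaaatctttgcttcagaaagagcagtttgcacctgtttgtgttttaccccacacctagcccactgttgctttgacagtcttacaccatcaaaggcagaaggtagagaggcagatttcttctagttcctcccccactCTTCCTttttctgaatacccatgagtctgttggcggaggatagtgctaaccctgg
Cd3e, chr9:45009562-45009861, minus strand: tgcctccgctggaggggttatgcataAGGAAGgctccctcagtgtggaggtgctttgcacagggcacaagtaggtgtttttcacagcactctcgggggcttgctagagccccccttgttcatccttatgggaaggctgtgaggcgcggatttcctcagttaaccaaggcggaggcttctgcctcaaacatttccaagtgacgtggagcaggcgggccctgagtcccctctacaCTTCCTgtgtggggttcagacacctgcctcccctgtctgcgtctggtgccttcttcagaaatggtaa
Cd3g, chr9:44980382-44980681, minus strand: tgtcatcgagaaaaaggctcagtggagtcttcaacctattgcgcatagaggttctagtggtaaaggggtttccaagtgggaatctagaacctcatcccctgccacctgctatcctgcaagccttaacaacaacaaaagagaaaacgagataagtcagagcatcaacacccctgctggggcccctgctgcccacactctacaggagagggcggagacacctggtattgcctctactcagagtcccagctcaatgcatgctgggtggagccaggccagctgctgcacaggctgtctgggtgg
Lck downstream start, chr4:129558323-129558622, minus strand: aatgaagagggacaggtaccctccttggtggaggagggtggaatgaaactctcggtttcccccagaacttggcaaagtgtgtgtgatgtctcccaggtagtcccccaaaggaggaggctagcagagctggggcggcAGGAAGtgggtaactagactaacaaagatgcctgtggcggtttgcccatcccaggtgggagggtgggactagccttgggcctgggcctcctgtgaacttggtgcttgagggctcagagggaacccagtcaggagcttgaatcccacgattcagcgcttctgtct
Lck upstream start, chr4:129573592-129573891, minus strand: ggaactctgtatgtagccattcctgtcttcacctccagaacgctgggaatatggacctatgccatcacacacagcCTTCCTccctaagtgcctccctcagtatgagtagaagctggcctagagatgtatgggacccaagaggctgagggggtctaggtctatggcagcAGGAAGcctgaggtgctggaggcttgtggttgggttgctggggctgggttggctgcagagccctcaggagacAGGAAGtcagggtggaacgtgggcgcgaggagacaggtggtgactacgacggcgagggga
Of the 10 genes 8 matched a promoter entry, with 10 entries in all, and Cd4 and Cd8b1 did not. The ETS-type letters, searched on both strands, were in 6 of the 10 entries, from 5 genes (Cd3d, Cd3e, Cd247, Lck and Il7r), against 35.4% of 32851 promoters of the same length. The E-box CAGGTG or CACCTG was in 7 of 10 entries, against 20.2% of all promoters. A RUNX-type core, TGTGGT on either strand, was in 2 of the 10 entries, against 16.8% of all promoters. A TCF/LEF-type core, CTTTGA on either strand, was in 2, against 16% of all promoters, and a GATA-type core, AGATAA on either strand, in 1, against 11.2%. A match describes letters in the window and not a bound site.

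The total of counts over genes ran from 18870759 in node 5 to 89481553 in HP primary 3. Levels are in CPM, a gene's share of the library's total scaled by TMM factors over all 23 libraries, and per kilobase of exon where genes are compared with each other. Nme2, 1 of the targeted genes, was at 0.0689 and 0.0965 CPM in lungs, 0.111 to 0.294 CPM in nodes and 0.0698 to 0.407 CPM in HPN primaries. It was at 0.313 to 0.877 CPM in HP primaries, so the genotypes overlapped. Its level was under 1 CPM in every library, HP primaries included, and so is a weak check on genotype. Nme1 was at 9.44 and 11.1 CPM in lungs, 6.01 to 9.01 CPM in nodes and 5.30 to 13.1 CPM in HPN primaries, against 7.69 to 29.8 CPM in HP primaries. All groups held high levels of 7 melanocyte markers, whose sum was 4507 CPM in node 5 and 6202 CPM or more in every other library. Primaries fell into a set of 8 libraries with 6 keratinocyte markers summing to 790 to 13470 CPM and a set of 6 with 1.98 to 54.2 CPM. Lung 3 held 3.31 CPM of 5 alveolar and airway markers, close to nodes and primaries, while lung 4 held 7429 CPM. In 8 libraries (nodes 7a, 7b and 8, HPN primary 7 and HP primaries 3, 6, 7 and 9) the deposited files list reads of low alignment quality; the remaining 15 libraries list none.

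Node metastases and HPN primaries share a genotype and differ in site. In the nodes 9 of the 10 T cell genes rose, by 1.72 to 5.90 on the log2 scale, and Il7r did not pass. The background share of genes called higher in this comparison was 12.7% (2435 of 19152 tested). The calls are those of edgeR's quasi-likelihood test with Benjamini-Hochberg adjustment over all genes tested and a threshold of 0.05. The median log2 difference of the 10 genes was 4.76, against -0.08 over all genes tested. All 10 passed the filter on low counts; Cd8b1 did so through the nodes alone, since it did not pass among primaries, and without the filter the same 9 were called. In bulk tissue more T cells and more RNA per T cell cannot be told apart.

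The CD3 chains were near the limit of detection in most primaries and abundant in every node. Cd3d had a lowest, median and highest level of 5.16, 20.4 and 42.1 CPM over the 7 node libraries, against 0.0348, 0.271 and 1.67 CPM over the 7 HPN primaries. No node library overlapped a primary, and the log2 difference was 5.42 (SE 0.77, edgeR adjusted p = 3.79e-04). Cd3e, whose epsilon chain pairs with both delta and gamma, had 7.32, 37.4 and 59.4 CPM in nodes, against 0.174, 1.02 and 5.30 CPM in primaries. Its groups did not overlap either, and its log2 difference was 4.62 (SE 0.78, edgeR adjusted p = 1.06e-03). Cd3g had 2.74, 17.3 and 28.0 CPM in nodes, against 0.0581, 0.354 and 2.97 CPM in primaries. Here node 4, the lowest node, lay just below HPN primary 1, the highest primary, and the log2 difference was 4.48 (SE 0.92, edgeR adjusted p = 3.86e-03).

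Cd247 encodes the zeta chain, which has more signalling motifs than any CD3 chain. It had 4.20, 16.8 and 29.2 CPM in nodes, against 0.104, 0.369 and 3.14 CPM in primaries, and its groups did not overlap. The log2 difference was 4.49 (SE 0.74, edgeR adjusted p = 9.13e-04). The gene (ENSMUSG00000005763) spans chr1:165788681-165877277 on the plus strand of GRCm38. Of its 5329 exonic bases, 3007 overlap the ubiquitous factor gene Pou2f1 on the opposite strand and 206 overlap Gm16565 on its own strand. Pou2f1 had up to 6833 counts in a library, and the strand setting of the counting is not given in the sources used here, so reads of the 2 genes may not be told apart in the counts of Cd247.

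Both coreceptors rose in the nodes. Cd4 (ENSMUSG00000023274, chr6:124864692-124888221, minus strand) had 50.7, 219 and 319.8 CPM over the node libraries, against 1.97, 6.71 and 10.6 CPM over the primaries. Node 7a was highest and node 4 lowest, with every node well above every primary. The samples averaged 187 ± 98.8 CPM in nodes (SD, n = 6) and 5.77 ± 3.08 CPM in primaries (SD, n = 7), and the log2 difference was 4.99 (SE 0.50, edgeR adjusted p = 4.73e-05). Cd8a (ENSMUSG00000053977, chr6:71373427-71379173, plus strand) had 6.62, 36.7 and 71.5 CPM in nodes, against 0.0695, 0.692 and 3.14 CPM in primaries. Cd8b1 (ENSMUSG00000053044, chr6:71322788-71337494, plus strand), the chain of the CD8 pair that dendritic cells lack, had 3.82, 17.7 and 35.7 CPM in nodes, against 0.0695, 0.185 and 0.698 CPM in primaries. Neither CD8 chain overlapped between the groups. The log2 difference was 5.47 for Cd8a (SE 0.80, edgeR adjusted p = 4.65e-04) and 5.90 for Cd8b1 (SE 0.67, edgeR adjusted p = 9.59e-05).

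Lck, the kinase that starts signalling from the receptor, rose by about as much as the CD3 chains. It had 11.2, 51.8 and 86.0 CPM in nodes, against 0.382, 1.24 and 4.40 CPM in primaries, with no overlap, and a log2 difference of 4.89 (SE 0.57, edgeR adjusted p = 1.20e-04). Il7r (ENSMUSG00000003882, chr15:9505788-9530176, minus strand) had 46.2, 85.9 and 117 CPM in nodes, against 7.58, 37.7 and 99.0 CPM in primaries. The highest primary, HPN primary 6, lay above 6 of the 7 node libraries, and the log2 difference of 0.89 did not pass (SE 0.50, edgeR adjusted p = 0.208). Without the 4 HPN primaries rich in keratinocyte markers it was 2.64 and passed (edgeR adjusted p = 0.00497). Tcf7 (ENSMUSG00000000782, chr11:52252371-52283014, minus strand) had 66.4, 103 and 136 CPM in nodes, against 4.52, 21.6 and 64.6 CPM in primaries. Its groups did not overlap, but the lowest nodes lay close to HPN primary 4, and the log2 difference was 1.72 (SE 0.46, edgeR adjusted p = 0.0160). With title number as a block the Tcf7 call was lost (1.77, edgeR adjusted p = 0.0885), and it was lost without the libraries with low-quality reads (1.66, edgeR adjusted p = 0.100) and without the 3 HPN primaries poor in keratinocyte markers (1.73, edgeR adjusted p = 0.0557).

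In all, 8 of the 10 genes had every node library above every primary, against 5.16% of all genes tested; Cd3g and Il7r overlapped. No member had every node below every primary, against 0.752% of all genes. In the 5 numbers that have both a node and a primary, every gene but Il7r was higher in the node in 5 of 5. The share of all genes higher in 5 of 5 was not computed, so this count has no background beside it. Among the genes other than Il7r the smallest difference was that of Tcf7 in number 4, with 67.0 CPM in the node and 64.6 CPM in the primary. Il7r was higher in the node in 3 of 5: it was at 46.2 CPM in node 4 and 67.4 CPM in HPN primary 4, at 96.7 CPM in node 6 and 99.0 CPM in HPN primary 6, and at 103 CPM in the joined nodes of number 7 and 10.1 CPM in HPN primary 7.

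**Figure D1:**
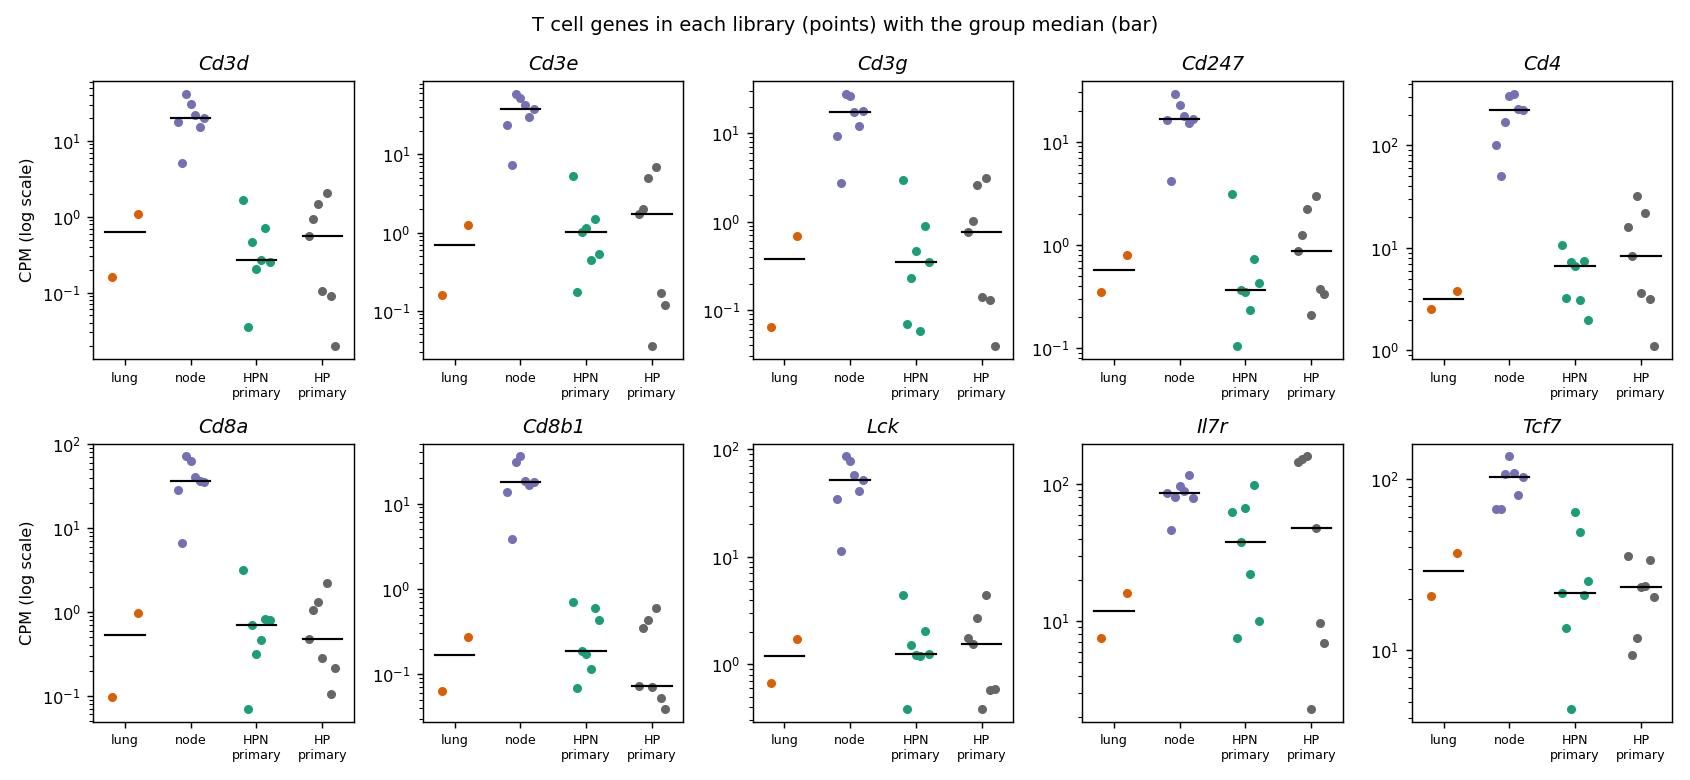
Level of each T cell gene in each library (points, CPM on a log axis) by group, with the group median as a bar. The 7 node libraries stand above the 7 HPN primaries for 8 genes, while Cd3g (node 4 at 2.74 CPM, HPN primary 1 at 2.97 CPM) and Il7r overlap.

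**Figure D2:**
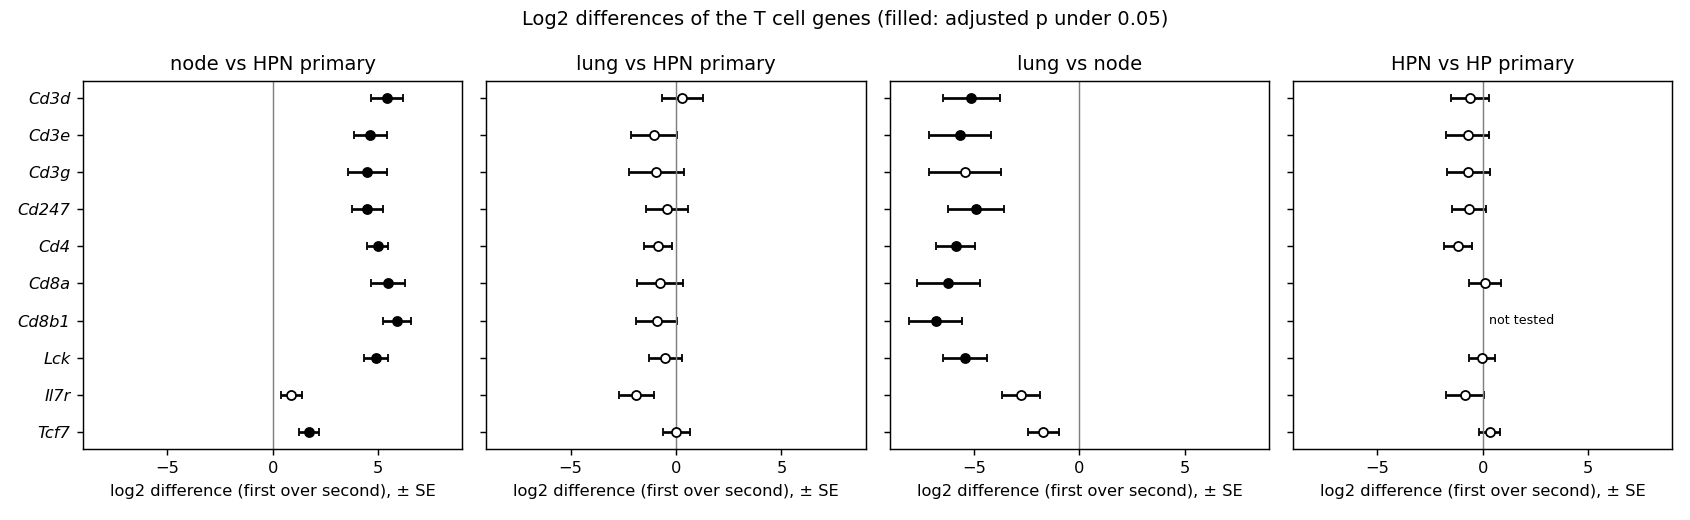
Log2 differences of the 10 genes in the 4 comparisons, first-named group over the second, with 1 SE on each side; filled points passed an edgeR adjusted p of 0.05. In nodes against HPN primaries 9 genes are filled and lie at 1.72 or above, and in lungs against HPN primaries and HPN against HP primaries none is filled.

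Per kilobase of exon, the order of the genes differed between nodes and the other groups. In nodes the mean level was highest for Cd4 (46.3 CPM per kilobase) and Tcf7 (36.4), then Lck (17.7), Il7r (17.6), Cd8b1 (13.3), Cd3d (12.4), Cd8a (11.2), Cd3e (8.88), Cd3g (5.04) and Cd247 (3.30). In lungs Tcf7 (11.0) led, followed by Il7r (2.54) and Cd4 (0.790), with the other 7 at 0.108 to 0.410 CPM per kilobase. In HPN primaries the mean level was highest for Tcf7 (10.9 CPM per kilobase) and Il7r (9.38), with Cd4 at 1.43 and the other 7 genes at 0.144 to 0.585. In HP primaries Il7r (16.1) and Tcf7 (8.60) led, with Cd4 at 3.05 and the other 7 at 0.155 to 0.582 CPM per kilobase. For each gene the levels of lungs, HPN primaries and HP primaries overlapped, and nodes came first by mean level. Beside the overlaps with HPN primaries given above, Cd3g in HP primary 6 (3.15 CPM) lay above node 4 (2.74 CPM), and Il7r in HP primaries 1, 3 and 4 (145, 153 and 159 CPM) lay above every node.

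The ratio of each gene to the CD3 chains asks which members moved with them. The CD3 level was the geometric mean of Cd3d, Cd3e and Cd3g per kilobase, and 7 ratios to it plus 2 CD4 to CD8 ratios were tested between 6 nodes and 7 HPN primaries with log2 ratios in a two-sided exact permutation test (1716 arrangements, smallest possible p 0.00117), adjusted over the 9. Lck held nearly the same ratio in every node, 2.06 to 2.35, with an SD of 0.06 on the log2 scale, although Lck itself had an SD of 1.05 on the log2(CPM + 0.5) scale over the same 6 samples. In primaries the Lck ratio was 1.46 to 5.73, and the groups did not pass for a difference (log2 -0.40, exact p = 0.171, adjusted 0.220). The ratio of Il7r to the CD3 chains was lower in nodes, at 1.21 to 6.08, than in primaries, at 12.9 to 85.2. All 6 nodes lay below all 7 primaries, and the log2 difference was -3.99 (exact p = 0.00117, the smallest these arrangements can give; adjusted 0.0105). Tcf7 to the CD3 chains was 2.86 to 15.7 in nodes and 7.94 to 264 in primaries, with 5 of 6 nodes below every primary and a log2 difference of -3.27 (exact p = 0.0035, adjusted 0.0157). The CD3 level rested on few reads in some primaries. Over the HPN primaries the counts ran from 1 to 48 for Cd3d, 5 to 152 for Cd3e and 2 to 85 for Cd3g. The highest Tcf7 ratio, 264, was that of HPN primary 5, with 3 counts of Cd3g.

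Neither ratio call held within title numbers, where 5 pairs allow 32 arrangements and no exact p under 0.0625; the log2 differences there were -4.21 for Il7r and -3.45 for Tcf7. Both also missed the threshold without the libraries with low-quality reads (-4.20 and -3.11, adjusted exact permutation p = 0.0857 each) and without the keratinocyte-rich primaries (-3.91 and -4.79, adjusted exact permutation p = 0.0536 each). Without the keratinocyte-poor primaries the Tcf7 ratio missed it (-2.12, adjusted exact permutation p = 0.0643). Each of these settings holds fewer samples than the main test, and without the keratinocyte-rich primaries only 3 HPN primaries remain. Fewer samples allow fewer arrangements and raise the smallest possible p, so a miss there does not show that the difference is absent. The other ratios did not pass. Cd247 to the CD3 chains differed by -0.31 (adjusted exact permutation p = 0.185), Cd4 by -0.38 (0.473), Cd8a by 0.45 (0.199) and Cd8b1 by 0.58 (0.185) on the log2 scale.

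**Figure D3:**
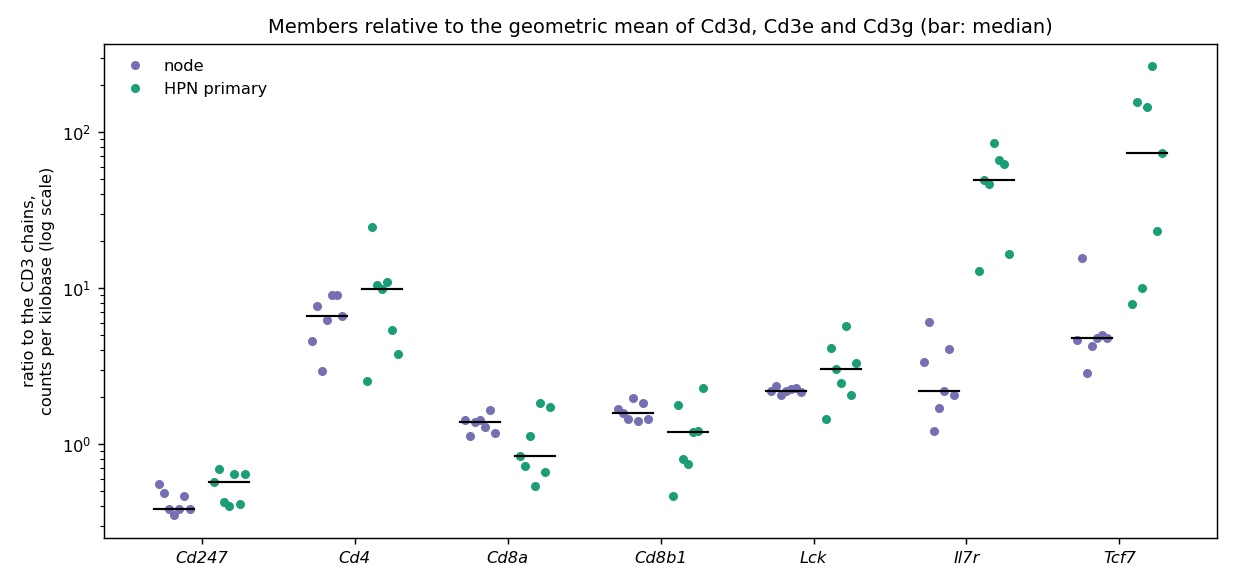
Ratio of 7 members to the CD3 chains, in counts per kilobase on a log axis, for each node library (left of each pair) and HPN primary (right), with the median as a bar. Il7r and Tcf7 sit lower in nodes than in primaries, and the Lck ratios of nodes lie between 2.06 and 2.35.

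The nodes differed several-fold among themselves, and most of the 10 genes varied together across them. Highest over lowest node library was 8.15-fold for Cd3d, 10.2-fold for Cd3g, 10.8-fold for Cd8a and 7.68-fold for Lck, against 2.54-fold for Il7r and 2.04-fold for Tcf7. Node 4, a brachial node, was lowest for every gene but Tcf7, in which node 3 (66.4 CPM) lay just below it (67.0 CPM). Node 5 was highest for Cd3d, Cd3e, Cd3g, Cd247, Cd8a and Lck, node 6 for Cd8b1 and Tcf7, node 7a for Cd4 and node 7b for Il7r. The summed melanocyte markers ran against this order at its ends, with 43420 CPM in node 4 and 4507 CPM in node 5. The other 5 libraries held 13540 to 30360 CPM and did not follow it throughout. Node 6 held 20050 CPM, above nodes 7a, 7b and 8 (13540 to 15370 CPM). Its CD3 level of 12.1 CPM per kilobase was also above theirs (6.14 to 8.72). The 6 B cell markers broadly ran with the T cell genes, at 162 CPM in node 4 and 344 CPM in node 3. They were at 741 to 1096 CPM in nodes 6, 7a, 7b and 8, and at 1590 CPM in node 5.

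Markers of other immune and node cells rose in nodes against HPN primaries to differing extents. By edgeR, 6 of 6 B cell, 6 of 7 NK cell, 4 of 5 lymph node stroma, 5 of 8 dendritic cell and 1 of 6 macrophage markers rose and 0 fell, against 12.7% of all genes called higher. Among primaries alone 4 of the 6 B cell, 3 of the 5 stroma and 7 of the 8 dendritic cell markers passed the filter on low counts. The 6 B cell markers summed to 162 to 1590 CPM in nodes, against 0.608 to 8.58 CPM in primaries, and the 5 lymph node stroma markers to 86.3 to 448 CPM, against 15.8 to 104 CPM. The 7 NK cell markers summed to 7.12 to 66.3 CPM in nodes, against 1.60 to 12.0 CPM in primaries, the 8 dendritic cell markers to 78.4 to 322 CPM, against 15.9 to 193 CPM, and the 6 macrophage markers to 319 to 1199 CPM, against 62.0 to 644 CPM. None of these markers was at 0 in all nodes. The part of node tissue in the rise of the T cell genes was not tested. The 6 keratinocyte markers summed to 1.34 to 20.1 CPM in nodes, against 1.98 to 5680 CPM in HPN primaries.

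CD4 to CD8 ratios were lower in nodes than in primaries on average, without passing the test. Per kilobase, Cd4 to Cd8b1 was 2.74 in node 3, 4.86 in node 4, 2.04 in node 5, 3.16 in node 6, 6.43 in node 7a, 4.96 in node 7b and 4.56 in node 8. Cd4 exceeded Cd8b1 in all 7, by the widest margin in a cervical node and the narrowest in the node with no site given. Cd4 to Cd8a was 3.20 in node 3, 6.89 in node 4, 2.14 in node 5, 4.38 in node 6, 7.09 in node 7a, 5.51 in node 7b and 5.59 in node 8. The 95% exact counting interval of Cd4 to Cd8b1, without an added count, was 1.88 to 2.22 in node 5 and 5.95 to 6.97 in node 7a, so these libraries differ by more than counting error. Nodes 7a and 7b, which share a number, stood at 6.43 and 4.96.

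Over samples, the geometric mean of Cd4 to Cd8b1 was 3.62 in nodes and 7.04 in HPN primaries (log2 difference -0.96, exact permutation p = 0.0921, adjusted 0.185). All 6 nodes lay below the median primary, while HPN primary 7, at 1.65, lay below every node; without it the log2 difference was -1.31 (adjusted exact permutation p = 0.0390). Cd4 to Cd8a had a geometric mean of 4.41 in nodes and 7.84 in HPN primaries (log2 difference -0.83, exact permutation p = 0.212, adjusted 0.239). The ratio rested on few reads outside the nodes: lung 3, HPN primaries 2 and 3 and HP primaries 1, 5, 7 and 9 had at most 4 counts of Cd8b1. In HP primary 1, with 432 counts of Cd4 and 2 of Cd8b1, the ratio of 79.5 had a 95% exact counting interval of 21.9 to 658. These intervals cover counting error only.

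**Figure D4:**
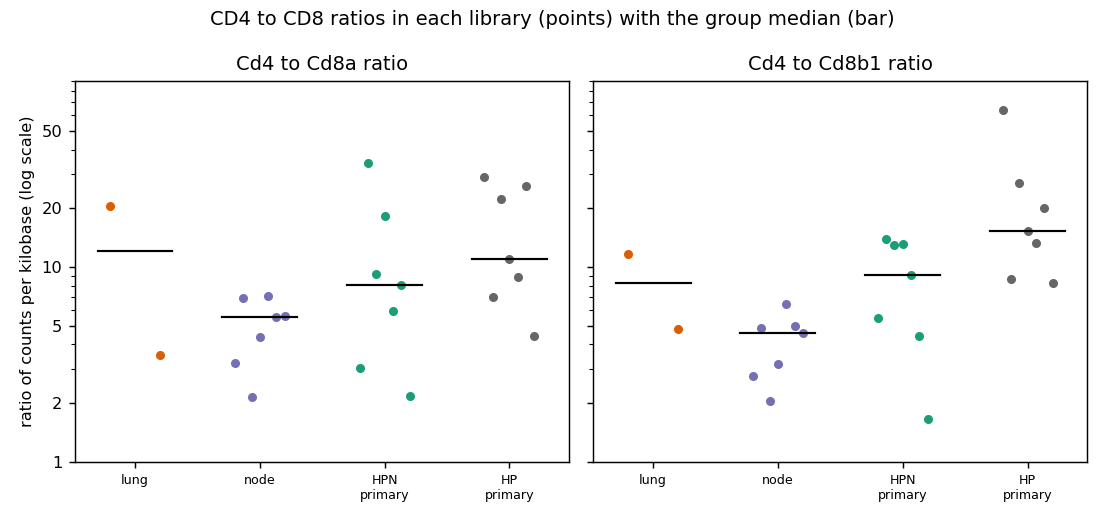
Cd4 to Cd8a and Cd4 to Cd8b1 ratios, in counts per kilobase with 0.5 added to each count, in each library (points, log axis), with the group median as a bar. Node libraries lie between 2.04 and 7.09, while lungs, HPN primaries and HP primaries spread more widely.

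T cell genes were low in both lung metastases, within or near the range of primaries. Cd3d was at 0.161 CPM in lung 3 and 1.10 CPM in lung 4, Cd3e at 0.161 and 1.24 CPM, Cd3g at 0.0643 and 0.689 CPM and Cd247 at 0.354 and 0.793 CPM, in the same order of libraries. Cd4 was at 2.54 CPM in lung 3 and 3.83 CPM in lung 4, Cd8a at 0.0965 and 0.965 CPM, and Cd8b1 at 0.0643 and 0.276 CPM. Lck was at 0.675 CPM in lung 3 and 1.72 CPM in lung 4, Il7r at 7.59 and 16.1 CPM, and Tcf7 at 20.6 and 37.1 CPM. All 10 genes were higher in lung 4, the library with the lung markers; B cell markers summed to 1.64 CPM in lung 3 and 10.6 CPM in lung 4, and NK cell markers to 0.579 and 8.89 CPM. The part of lung tissue in this difference was not tested.

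Against HPN primaries, 0 of the 10 genes passed in the lungs with edgeR (1 at an unadjusted p under 0.05) and 0 with DESeq2, where edgeR called 0.266% of 19152 genes (0.251% higher and 0.0157% lower). All 10 overlapped between the groups, as most genes did. Over all genes tested, both lungs lay above every HPN primary for 2.28% and below every one for 1.67%. Of the log2 differences 2 were positive and 8 negative, with a median of -0.81, against -0.06 over all genes tested. The gene with an unadjusted p under 0.05 was Il7r (log2 -1.89, SE 0.83, edgeR adjusted p = 0.684), which passed without the keratinocyte-poor primaries (-2.50, edgeR adjusted p = 0.0380). Cd4 to Cd8b1 was 11.7 in lung 3 and 4.83 in lung 4, and Cd4 to Cd8a 20.5 and 3.53, with 2 counts of Cd8b1 and 3 of Cd8a in lung 3. The 95% exact counting intervals of Cd4 to Cd8b1, 3.89 to 122 in lung 3 and 2.502 to 12.1 in lung 4, overlapped. Those of Cd4 to Cd8a, 7.84 to 118 in lung 3 and 2.35 to 5.62 in lung 4, did not.

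Against nodes, all 10 genes lay lower in both lungs than in any node library, where 13.3% of 19152 genes did. By edgeR 7 of 10 fell, against 3.09% of all genes called lower. Cd8b1, 1 of the 7, passed the filter on low counts through the nodes alone and had 2 counts in lung 3 and 8 in lung 4. Without the filter the same 7 were called. Cd8b1 had the log2 difference of largest size, -6.82 (SE 1.26, edgeR adjusted p = 0.0180), followed by Cd8a at -6.23 (SE 1.49, 0.0357), Cd4 at -5.86 (SE 0.93, 0.0138), Cd3e at -5.66 (SE 1.46, 0.0417), Lck at -5.41 (SE 1.05, 0.0210), Cd3d at -5.12 (SE 1.34, 0.0435) and Cd247 at -4.92 (SE 1.33, 0.0481). Cd3g (-5.42, edgeR adjusted p = 0.0782), Il7r (-2.78, 0.0831) and Tcf7 (-1.71, 0.184) did not pass. The lungs and nodes were each also set against the same HPN primaries, in 1 fit.

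With 2 lungs these calls were close to the threshold. With title number as a block 0 of 10 passed, as without the libraries with low-quality reads, and 3 passed with that batch as a term. Without lung 3 the count was 1 and without lung 4 it was 0, where the lone lung was taken to vary like the other groups. Leaving out some other samples also lowered the count: without node 5, 6, 7 or 8 it was 3, and without HPN primary 3, 4 or 6 it was 4. DESeq2 called 9.

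The comparison of HPN with HP primaries addresses the loss of a copy of Nme1 and Nme2, and none of the 9 T cell genes tested passed. Cd8b1 did not pass the filter on low counts; its counts ran from 2 to 23 in the HPN libraries and from 2 to 40 in the HP libraries. The edgeR test called 0 of 9 (adjusted p from 0.951 to 0.992; 0 of the 9 at an unadjusted p under 0.05), with 0% of 16578 genes called and 477 at an unadjusted p under 0.05, and DESeq2 called 0 genes (1059 at an unadjusted p under 0.05). Cd3e had a lowest, median and highest level of 0.174, 1.02 and 5.30 CPM in HPN primaries, against 0.0351, 1.72 and 6.89 CPM in HP primaries (log2 -0.71, SE 1.02). Cd4 had 1.97, 6.71 and 10.6 CPM in HPN primaries, against 1.09, 8.30 and 32.2 CPM in HP primaries (log2 -1.15, SE 0.66). Il7r had 7.58, 37.7 and 99.0 CPM in HPN primaries, against 2.28, 47.6 and 159 CPM in HP primaries (log2 -0.84, SE 0.88), and Tcf7 had 4.52, 21.6 and 64.6 CPM, against 9.31, 23.5 and 35.7 CPM (log2 0.32, SE 0.48). All 9 overlapped, as did every gene tested: 0% of 16578 had all HPN libraries above, or all below, the HP libraries. Of the log2 differences 7 were negative and 2 positive, with a median of -0.65, against -0.05 over all genes tested.

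The ratio of Cd4 to the CD8 beta chain was on average lower in HPN than in HP primaries, without passing once adjusted. Cd4 to Cd8b1 ran from 1.65 to 13.9 with a geometric mean of 7.04 in HPN primaries, and from 8.31 to 63.6 with a geometric mean of 17.5 in HP primaries. All 7 HPN primaries lay below the median HP primary, 3 of them below every HP primary, and the log2 difference was -1.31. The exact permutation p over 3432 arrangements was 0.0361, and 0.0723 adjusted over the 2 CD4 to CD8 ratios, which does not pass. It passed without HP primary 3 (-1.48, adjusted exact permutation p = 0.0490), without HP primary 9 (-1.49, adjusted exact permutation p = 0.0443) and without the libraries with low-quality reads (-1.73, adjusted exact permutation p = 0.0476). Leaving out any other single sample did not make it pass, with an adjusted exact permutation p of up to 0.1445. With title number as a block the log2 difference was -1.66 (adjusted exact permutation p = 0.125). HPN and HP primaries of the same number are different animals, so these 6 pairs are joined by number alone. They allow 64 arrangements and no exact p under 0.03125 before adjustment, so this miss does not show that the difference is absent. Cd4 to Cd8a had a geometric mean of 7.84 in HPN primaries and 12.6 in HP primaries (log2 -0.68, exact permutation p = 0.312, adjusted 0.312). Among all primaries the ratio of Cd4 to the CD3 chains was lowest in HPN primary 1 (2.55) and highest in HP primary 5 (25.9). Which cells made the Cd4 RNA of primaries was not tested, so their CD4 to CD8 ratios do not give T cell numbers.

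Among primaries of both genotypes, several T cell genes were higher in the libraries with high keratinocyte markers. Cd3e was at 1.02 to 6.89 CPM in the 8 keratinocyte-rich primaries, against 0.0351 to 0.531 CPM in the 6 keratinocyte-poor ones. Cd4 was at 6.71 to 32.2 CPM, against 1.09 to 3.61 CPM, and Il7r at 37.7 to 159 CPM, against 2.28 to 22.0 CPM. For these 3 of the 9 tested genes every rich library lay above every poor one, against 10.2% of 16578 genes; for 0 of the 9 did every rich library lie below, against 3.37%. Lck was at 1.22 to 4.43 CPM in rich and 0.382 to 1.24 CPM in poor primaries, and Cd3d at 0.203 to 2.05 and 0.0195 to 0.271 CPM, with slight overlap. Tcf7 was at 4.52 to 64.6 CPM in rich and 13.5 to 49.1 CPM in poor primaries and showed no such order. These sets were defined from the data, and how skin in the samples bears on the T cell genes was not tested. The rich set holds HPN primaries 1, 3, 4 and 6 and HP primaries 1, 3, 4 and 6.

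**Figure D5:**
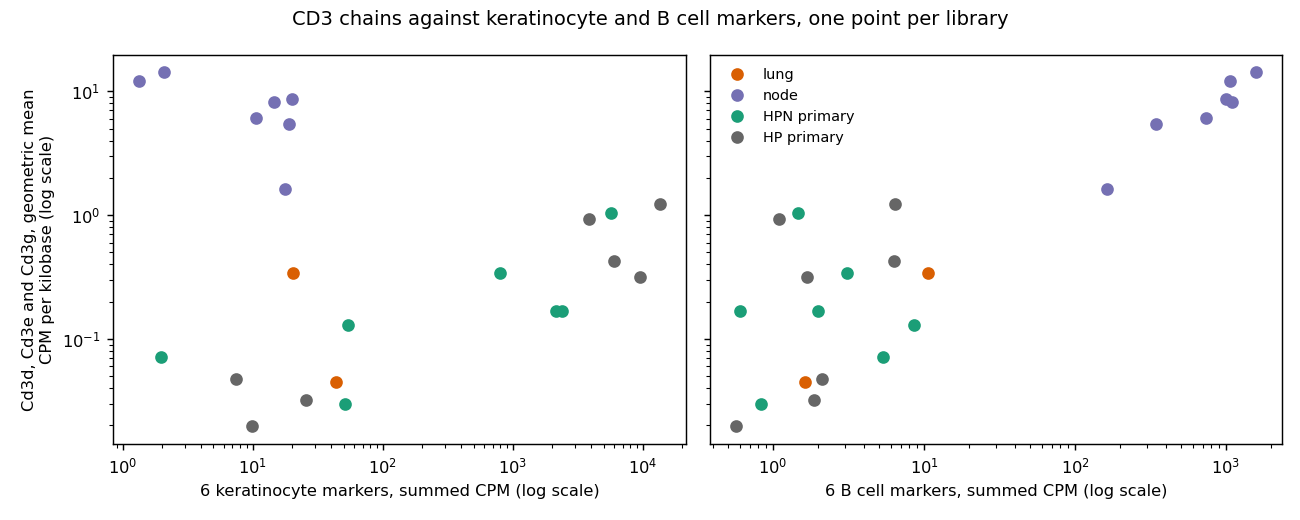
Geometric mean of Cd3d, Cd3e and Cd3g (CPM per kilobase, log axis) in each library against the summed CPM of 6 keratinocyte markers (left) and of 6 B cell markers (right), coloured by group. Primaries with keratinocyte sums of 790 CPM or more have CD3 levels of 0.168 to 1.23, against 0.0197 to 0.129 in the other primaries, and nodes have high CD3 with B cell sums of 162 CPM or more.

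Most of a list of 41 further T cell genes were also higher in nodes. In nodes against HPN primaries 35 of 41 rose and 1 fell, against 12.7% and 9.81% of all genes, with a median log2 difference of 3.93 against -0.08. Of the 35, Sh2d1a, Ctla4 and Cd40lg did not pass the filter on low counts among primaries alone and were tested because the metastases were in the fit. Among the 6 with the smallest p were the chromatin organiser Satb1 (log2 difference 3.39, SE 0.40, edgeR adjusted p = 1.31e-04), the lymphoid factor Ikzf1 (4.37, SE 0.53, 1.51e-04), the adaptor Grap2 (5.34, SE 0.65, 1.51e-04), the node homing receptor Ccr7 (5.05, SE 0.63, 1.62e-04) and the adaptor Lat (3.93, SE 0.53, 2.62e-04). Ikzf1 and Ccr7 are also made by B cells. Lat was at 8.08 to 53.7 CPM in node libraries, against 0.556 to 4.26 CPM in primaries. Zbtb7b, the factor of the CD4 lineage also known as ThPOK, fell (log2 -0.60, edgeR adjusted p = 0.00937), at 40.4 to 62.8 CPM in nodes and 62.2 to 98.6 CPM in primaries. It was also at 59.9 to 68.0 CPM in lungs, where Cd3e was at most 1.24 CPM. Its level therefore did not follow that of the CD3 chains, and which cells made it was not tested. Fyn, Thy1, Bcl11b, Gata3 and Lef1 did not pass; Gata3, also a factor of skin and hair, was at 1.78 to 11.2 CPM in nodes and 0.194 to 125 CPM in primaries.

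In lungs against HPN primaries 0 of the 41 passed with edgeR (2 at an unadjusted p under 0.05), where 0.266% of all genes did, and in lungs against nodes 20 fell and 0 rose, against 3.09% and 1.96% of all genes. Among those with the smallest p were Lat (log2 difference -4.93), Thy1 (-4.09), Ikzf1 (-4.47), the costimulatory receptor Cd28 (-4.18) and Zap70 (-5.30), the kinase that binds phosphorylated zeta chains. Between HPN and HP primaries 38 of the 41 were tested and 0 passed with edgeR (0 at an unadjusted p under 0.05), with 6 positive and 32 negative log2 differences.

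The genes most like the CD3 chains differed between nodes and primaries. Likeness was Pearson's r of log2(CPM + 0.5) with the mean of Cd3d, Cd3e and Cd3g, among genes with a mean of at least 1 CPM, as a description; libraries share depth and tissue makeup, and nodes 7a and 7b share a number. Over the 7 node libraries the 10 highest included Prkcq (0.994), the theta kinase of T cell signalling, and Sh2d2a (0.994), an adaptor of T cells. Also among them were Ksr2 (0.993), Cd5 (0.991), Gimap3 (0.991), Cd96 (0.991) and Fam78a (0.988). Among the 10 genes themselves r was 0.999 for Lck, 0.988 for Cd8a, 0.983 for Cd8b1, 0.980 for Cd247, 0.827 for Cd4, 0.81 for Tcf7 and 0.694 for Il7r. Over the 14 primaries, which span both keratinocyte sets, the 10 highest included P2ry10 (0.980) and Itgae (0.976), the integrin of T cells that reside in epithelia. Also among them were Pglyrp2 (0.973), Il2ra (0.972), Il18r1 (0.965), Tspan8 (0.963), H2-M2 (0.963), Cxcr6 (0.962) and Lipg (0.961). There r was 0.953 for Lck, 0.870 for Cd4, 0.748 for Il7r and -0.172 for Tcf7, and Cd247, Cd8a and Cd8b1 were under the minimum level.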

How the data were processed

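Per the labels' protocols, column-purified total RNA went into dual-indexed directional libraries. The submitters' processing notes name bcl2fastq 1.8.4, STAR 2.5.3a and the build mm9. For each library the authors deposited raw, whole-number counts by Ensembl gene identifier; which tool counted, and with which strand setting, is not given in the sources used here. Summary entries name no gene and were left out; gene counts were 25.04 to 50.81% of all entries. Of 37620 identifiers 87.45% were found in GENCODE vM21 (GRCm38), the source of symbols, exon lengths and coordinates; promoters came from RefSeq.

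Each comparison was fitted over the whole table with edgeR 4.0.16 in R 4.3.3 (filterByExpr, TMM, robust glmQLFit, glmQLFTest) with Benjamini-Hochberg adjustment. Lungs, nodes and HPN primaries shared a fit, and HPN and HP primaries had their own. CPM used TMM factors over 23 libraries. Ratios had 0.5 added to each count and were tested by exact permutation (scipy 1.17.1, Python 3.11.15). The fits were tested on simulated data. The genes named are the 10 members, the 6 of smallest p per comparison in the list of 41, with those that fell or did not pass in nodes named after their values were seen, and the 10 most alike in nodes and in primaries; that ranking omits antigen receptor segments, pseudogenes and predicted genes, and a few of the genes these rules name are not reported here. The members and lists were chosen with earlier results of these data known.

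Metastases carry their primary's number in their titles, so numbers were read as animals for the replicate block; deviations of same-numbered nodes and primaries correlated at 0.254, 0.00164, -0.0826, 0.265 and 0.134. HPN and HP primaries of the same number, which are different animals, correlated at 0.104 to 0.661 over 6 pairs. For that comparison the block joins samples by number alone. The alternatives run were no filter, DESeq2 1.42.0, its size factors in edgeR, all groups in 1 fit, the low-quality-read batch as a term or left out, the block, unsummed nodes, 5 added to each count and each sample left out. Chosen after seeing the data were the fits without keratinocyte-rich or keratinocyte-poor primaries (a sum of 6 markers of at least 500 CPM or under it), the keratinocyte level as a covariate and the block's samples without the block.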

Additional observations from a re-analysis of the deposited data

Results flagged for a closer look

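Gaps between 1 sample and the rest of its group were looked for in 57 sets of values, the 10 genes and 9 ratios in each of 3 groups. Chance alone marks about 1 in 20 such sets, and 4 were marked. Node 4 stood low among the 6 node samples for Cd247, at 4.20 CPM, where the others ran from 16.1 to 29.2 CPM. Node 4 was also the low sample for Il7r, at 46.2 CPM, with the others at 79.5 to 103 CPM. In the same sample the ratio of Tcf7 to the CD3 chains was high, at 15.7, with the others at 2.86 to 4.85. Node 4 held the highest melanocyte sum of the nodes (43420 CPM) and the lowest B cell sum (162 CPM); their part in these values was not tested. HPN primary 1 stood high among the 7 HPN primaries for Cd247, at 3.14 CPM, where the others ran from 0.104 to 0.736 CPM.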

How the results depend on the processing

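In nodes against HPN primaries the count of called T cell genes was 8 to 10 under every alternative run, and 9 without any single sample; the calls other than Tcf7 and Il7r did not change. With the replicate block it was 8, and the same samples without the block also gave 8. The block changed no call in lungs against HPN primaries or HPN against HP primaries (0 each). In lungs against HPN primaries the count was 0 except for 1 without the keratinocyte-poor primaries. In lungs against nodes the 7 calls became 4 with all groups in 1 fit, 3 with the low-quality-read batch as a term, 0 without the libraries of that batch and 0 with the replicate block, and 0 to 8 without single samples. The count of called ratios to the CD3 chains, 2, became 0 with the replicate block, without the low-quality-read libraries and without the keratinocyte-rich primaries, and was 2 to 3 without single samples. The settings that gave 0 hold fewer samples and allow fewer arrangements, so their misses do not show that the differences are absent. Cd4 to Cd8b1 differed between HPN and HP primaries by -1.73 on the log2 scale without the low-quality-read libraries, and by -1.49 to -0.96 without single samples; between nodes and HPN primaries it differed by -1.31 to -0.80 without single samples.

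Signs turned only among differences that had not passed, and the cause was not tested. For lungs against HPN primaries, Tcf7 was -0.0212 without the low-quality-read libraries and -0.19 in the block's samples without the block, where Cd247 was 0.46. With the replicate block Cd3g was 0.38, Cd247 0.997, Cd8a 0.63, Cd8b1 0.24 and Lck 0.26. Without the keratinocyte-rich primaries Cd3e was 0.87, Cd3g 1.25, Cd247 1.16, Cd4 0.22, Cd8a 0.24 and Lck 0.37, and without the keratinocyte-poor ones Cd3d was -0.29. Without single samples Cd3d ran from -1.65 to 1.11, Cd3g from -3.40 to 0.15, Cd247 from -1.10 to 0.65, Cd8a from -3.17 to 0.11, Lck from -1.33 to 0.0214 and Tcf7 from -0.47 to 0.39. For HPN against HP primaries, Lck was 0.000755 with all groups in 1 fit, 0.14 without the low-quality-read libraries, 0.29 with the replicate block, 0.87 without the keratinocyte-rich primaries and 0.40 with the keratinocyte level as a covariate. Cd3e was 0.0313 with the block and 0.39 with the covariate, Cd3d 0.31 and Il7r 0.18 with the covariate, Cd4 0.10 and Il7r 1.09 without the keratinocyte-rich primaries, and Cd8a -0.0395 without the keratinocyte-poor ones. Without single samples Cd8a ran from -0.71 to 0.60, Lck from -0.52 to 0.41 and Tcf7 from -0.0025 to 0.51. Among ratios to the CD3 chains in nodes against HPN primaries, Cd4 was 0.0878 with 5 added to each count, Cd8a was -0.000411 and Cd8b1 -0.0742 without the keratinocyte-rich primaries, and Lck was 0.0133 without the keratinocyte-poor ones. Depth limits the CD8 ratios of primaries, where as few as 2 counts of Cd8b1 stand behind a value.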

Other observations

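Genes of immature lymphocytes were looked for in the nodes, where developing T cells are not usual. Rag1, which cuts antigen receptor genes in developing B and T cells, was at 2.68 CPM in node 3, 0.467 in node 4, 0.791 in node 5, 7.44 in node 6, 2.09 in node 7a, 20.4 in node 7b and 9.76 in node 8, against at most 0.202 CPM in HPN primaries. Node 7b, the inguinal node, was highest; of the 10 T cell genes only Il7r was also highest there. Dntt, which adds bases at receptor gene joints, was at 0.0875 to 3.95 CPM in nodes, against at most 0.174 CPM in HPN primaries. Neither gene passed the filter on low counts among primaries alone, so no test is given. Ptcra, the receptor chain of early thymocytes, had at most 4 counts in a node library (0.119 CPM) and 0 in nodes 3 and 4, so it was at or near 0 throughout. The list of 6 also held Rag2, at most 0.960 CPM in nodes and 0 in HPN primaries, Ccr9 and Cd1d1. Ccr9 rose (log2 3.38, edgeR adjusted p = 0.00568), at 0.992 to 10.8 CPM in nodes and 0.177 to 2.09 CPM in HPN primaries. Cd1d1 rose less (1.10, edgeR adjusted p = 0.0401), where 12.7% of all genes were called higher.

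Foxp3, the factor of regulatory T cells, was at 1.14 to 10.8 CPM over the node libraries, against 0.116 to 2.13 CPM in HPN primaries. In lungs Foxp3 was at 0.0345 to 0.225 CPM. Of the 5 markers of gamma-delta and innate-like T cells matched, 1 of 4 tested rose in nodes and 3 did not pass, against 12.7% of all genes called higher; their sum was 10.1 to 22.9 CPM in nodes, against 4.66 to 44.2 CPM in HPN primaries.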
